A study of Mus musculus with 30 samples.

Results

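The genes described here encode the immunoproteasome and the machinery that loads peptides on MHC class I molecules. They were chosen by symbol, as a list of 10 mouse genes: Psmb8, Psmb9, Psmb10, Psme1, Psme2, Tap1, Tap2, Tapbp, B2m and Nlrc5. Of the 10 genes, 9 were measured by at least 1 probe set that the platform annotation assigns to a single gene, among 18193 genes with such a probe set, and all 9 were among the 12998 genes tested. Psme2 had only a probe set shared with Psme2b, so no value is given for Psme2 alone. The samples were whole salivary glands of female NOD.H-2h4 mice, a strain studied as a model of autoimmune salivary gland disease. Each mouse had received a single intraperitoneal injection of antibody, at 20 mg/kg and 4 weeks of age. The 6 groups of 5 mice were glands collected after anti-CD40L antibody and after a human IgG1 isotype control antibody, each at 8, 16 and 24 weeks of age. CD40L, carried by activated T cells, binds the receptor CD40 on B cells, dendritic cells and macrophages. All mice had been injected, so no uninjected group is part of the comparison, and whole glands rather than sorted cells were measured.

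The proteasome cuts intracellular proteins into peptides. In cells exposed to interferon gamma, and constitutively in many leukocytes, its 3 catalytic subunits are replaced by Psmb8 (LMP7), Psmb9 (LMP2) and Psmb10 (MECL-1), which gives the immunoproteasome. Psme1 and Psme2 form the PA28 activator that caps the proteasome core. Tap1 and Tap2 form the transporter that moves peptides into the endoplasmic reticulum, where tapasin, the product of Tapbp, bridges the transporter to class I heavy chains. B2m is the light chain of every class I molecule, and Nlrc5 is a transactivator of class I genes.

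Total RNA was profiled on Affymetrix mouse expression arrays, and all values are log2 intensities as deposited, so a difference of 1 is a 2-fold difference. Array medians lay between 5.49 and 5.54. Levels of different probe sets are not compared with each other. Of the 4 measured salivary acinar genes and the 2 measured granular duct genes, the mean levels were 11.62 to 12.61 and 13.13 to 13.79 in the 30 arrays, far above the array medians. The amylase gene Amy1, a parotid marker, ranged from 6.58 to 13.70 across arrays. It was not balanced between groups. At week 8 it was 13.18 to 13.70 in anti-CD40L glands and 6.58 to 13.61 in control glands. In anti-CD40L glands it was 7.34 to 12.41 at week 16 and 7.34 to 13.43 at week 24. The gap between 3 prime and 5 prime probe sets of housekeeping control transcripts, which widens as RNA degrades, averaged 0.37 log2 units in anti-CD40L glands and 0.57 in control glands at week 8. It averaged 0.26 in anti-CD40L and 0.29 in control glands at week 16, and 0.20 in anti-CD40L and 0.41 in control glands at week 24. The replicates are separate mice per the labels, so p-values below measure the spread between these arrays. Bulk tissue levels cannot tell fewer cells of a type from less RNA per cell.

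Several of these genes lie together in the MHC region of chromosome 17: Psmb9, Tap1, Psmb8 and Tap2 follow one another there, with Tapbp elsewhere in the same region. Psmb10 and Nlrc5 are on chromosome 8, Psme1 and Psme2 on chromosome 14 and B2m on chromosome 2. Tap1 and Psmb9 are transcribed away from each other from starts 226 bases apart, so that their promoter windows of 300 bases share 275 bases. The 250 bases upstream of the start are printed below for Tap1, whose window overlaps that of Psmb9, for Psmb8 and for B2m. B2m lies on another chromosome and rose with age in control glands. Over 30 arrays, with each group's mean removed, Psmb8 correlated with Psmb9, Tap1 and Tap2 nearby at 0.96, 0.77 and 0.61. With Tapbp, elsewhere in the same region, Psmb8 correlated at 0.35. With Psmb10, Nlrc5, B2m and Psme1 on other chromosomes Psmb8 correlated at 0.90, 0.77, 0.75 and 0.67. The sequences are RefSeq promoter entries of build GRCm38.p6, plus strand, at chr17:34187306-34187555 for Tap1, chr2:122147437-122147686 for B2m and chr17:34197945-34198194 for Psmb8. They are reference sequences and were not read from the NOD.H-2h4 mice measured here, whose letters may differ. Capitals mark matches to CCAAT (the Y-box, written ATTGG where it lies on the other strand), to GAAANNGAA (the core of the interferon-stimulated response element, ISRE) and to TTCNNNGAA (the core of the gamma-activated site, GAS). Both strands were searched.
Tap1: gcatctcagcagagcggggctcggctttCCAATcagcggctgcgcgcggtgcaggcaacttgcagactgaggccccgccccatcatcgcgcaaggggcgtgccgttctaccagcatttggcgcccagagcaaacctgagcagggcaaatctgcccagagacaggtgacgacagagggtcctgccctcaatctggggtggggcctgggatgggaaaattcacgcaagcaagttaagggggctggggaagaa
B2m: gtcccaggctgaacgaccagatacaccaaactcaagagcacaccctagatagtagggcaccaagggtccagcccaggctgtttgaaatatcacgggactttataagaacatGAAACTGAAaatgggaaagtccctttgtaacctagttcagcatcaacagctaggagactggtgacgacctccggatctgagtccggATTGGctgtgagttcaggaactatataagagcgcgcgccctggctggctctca
Psmb8: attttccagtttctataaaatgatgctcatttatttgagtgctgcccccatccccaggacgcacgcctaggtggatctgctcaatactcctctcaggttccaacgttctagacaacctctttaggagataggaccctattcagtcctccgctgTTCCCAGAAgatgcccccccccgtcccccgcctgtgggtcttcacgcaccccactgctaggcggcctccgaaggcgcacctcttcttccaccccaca

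Of the 8 members with a promoter window, 2 (B2m and Psme1) held the ISRE core, against 8.56% of all 32851 windows. Only Psmb8 held the GAS core, which stood in 8.3% of all windows. The Y-box was found in B2m, Psmb9, Tap1 and Tapbp, 4 of 8, against 37.4% of all windows; the match of Tap1 and that of Psmb9 are the same 5 bases, counted in both windows. The X2-box core TGACGT was found in 0 of 8, against 7.51%. Tap2 and Nlrc5 were not in the table of windows. These matches describe the letters in these reference windows only.

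Across the 6 groups, the mean level was highest in control glands at week 24 for 6 genes (Psmb8, Psmb9, Psmb10, Psme1, Tap1 and B2m) and in control glands at week 16 for the other 3 (Tap2, Tapbp and Nlrc5). It was lowest in anti-CD40L glands at week 16 for 5 genes (Psmb8, Psmb9, Psmb10, Psme1 and Nlrc5), in control glands at week 8 for 3 (Tap2, Tapbp and B2m) and in anti-CD40L glands at week 8 for Tap1. The 3 immunoproteasome subunits had the same order of group means, with all 3 control groups above all 3 anti-CD40L groups. Of the 45 pairs of neighbours in these orders, 28 differed by less than the SD of either group. The others include control week 24 above control week 16 for Psmb8, Psmb9, Psmb10 and B2m, by 0.80, 0.87, 0.34 and 0.18. These gaps were still below the control week 16 SDs of 1.05, 0.98, 0.52 and 0.34. The step from week 16 to week 24 was not tested. The SD between mice was smaller in anti-CD40L than in control glands for 7 of 9 genes at weeks 8 and 16 and for 9 of 9 at week 24. No share over all genes is given for these counts. The SD of the 3 prime minus 5 prime difference was also smaller in anti-CD40L glands, at 0.098, 0.048 and 0.036 by week. In control glands it was 0.198, 0.066 and 0.121, and its part in the counts was not tested.

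The anti-CD40L treatment was compared with the control antibody at each age. At week 24, 2 of the 9 measured genes fell with anti-CD40L, the immunoproteasome catalytic subunits Psmb8 (log2 difference -1.29 ± 0.38 SE, 0.41-fold, limma adjusted p = 0.0342) and Psmb9 (-1.22 ± 0.37, 0.43-fold, limma adjusted p = 0.0376). Over all genes tested, 3.49% were called lower at this age. At week 16 none of the 9 genes passed, though all 9 differences were below 0. Their median was -0.51, against a median of 0.015 over all genes. At this age 0.577% of genes were called lower and 1.31% higher. An unadjusted limma p under 0.05, in either direction, was found for 6 of the 9, against 1910 of the 12998 genes tested. At week 8 none passed, with 6 differences below 0 and a median of -0.15, where 0.0692% of all genes were called lower. None of the 9 had an unadjusted p under 0.05 at week 8, against 2019 of all genes tested. The median difference of the 9 genes at week 24 was -0.42, with 7 below 0, against 0.029 over all genes. At week 24, 3 of the 9 had an unadjusted p under 0.05, against 3853 of all genes tested.

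**Figure D1:**
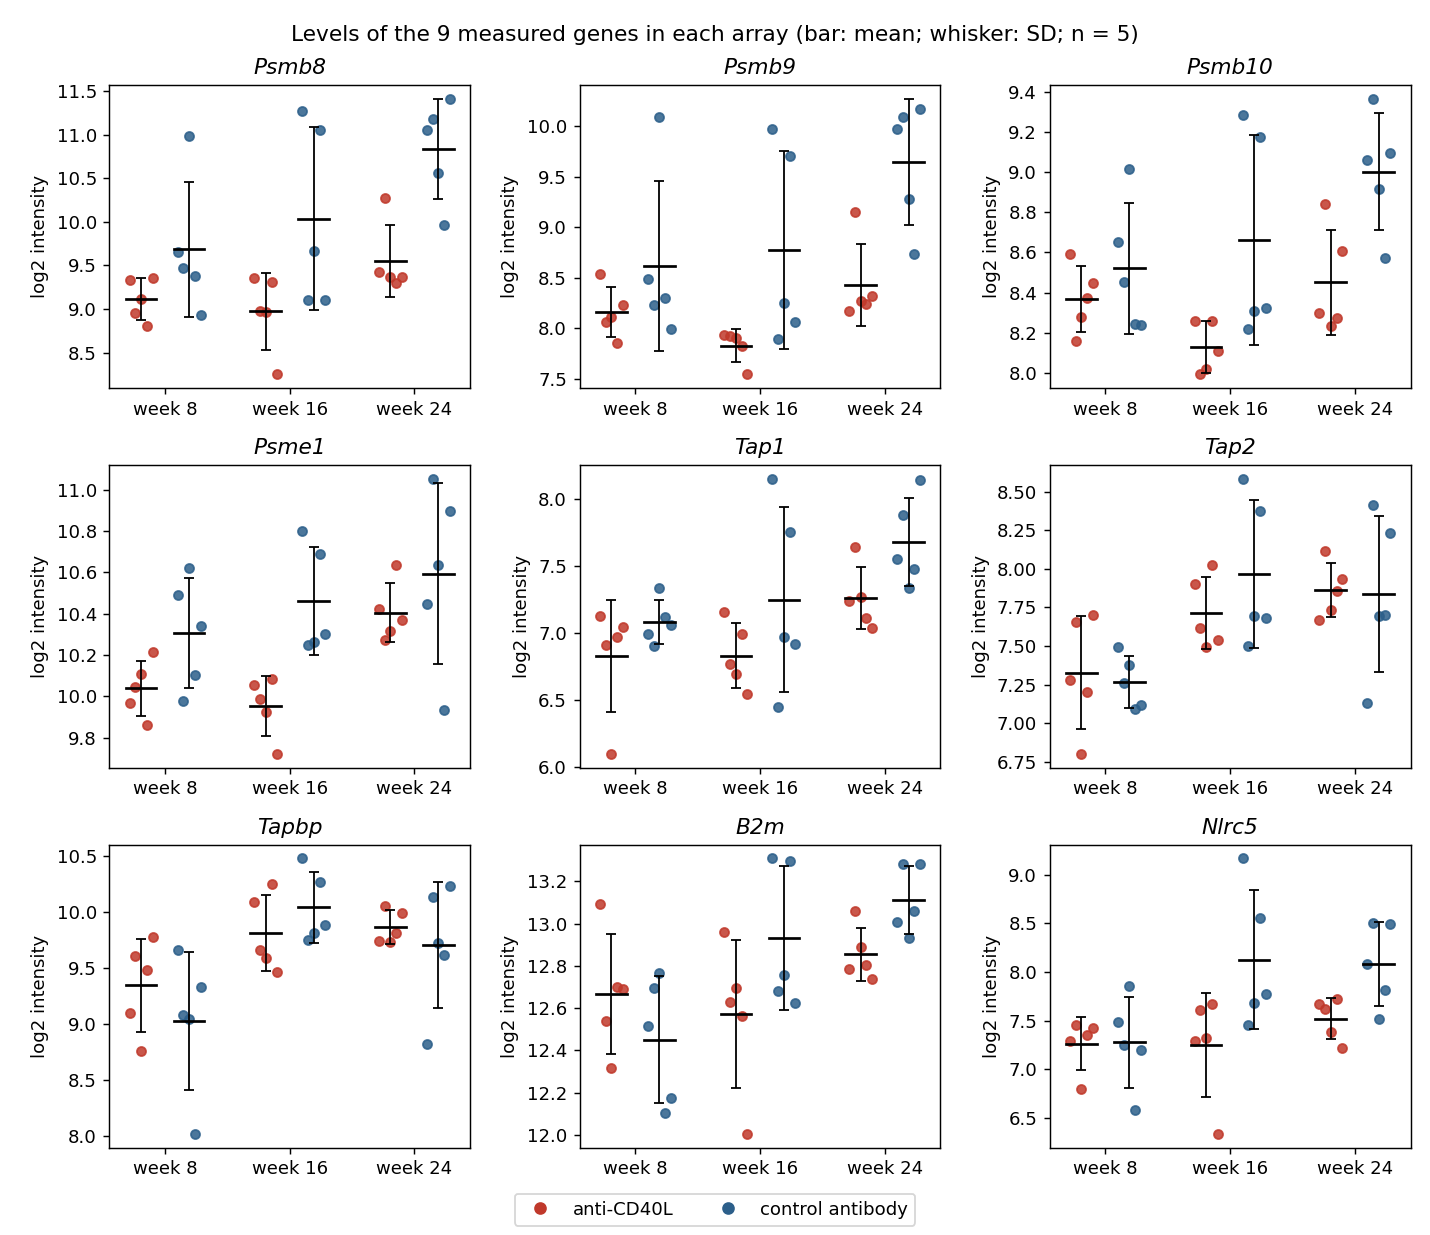
Log2 intensity of the 9 measured genes in each of the 30 arrays, 5 mice per group, with anti-CD40L (red) left of control (blue) at each week. Bars are group means and whiskers SDs. Control glands at week 24 lie above most anti-CD40L glands for Psmb8 and Psmb9, and 2 control glands at week 16 stand above the other 3.

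Psmb8 measured 9.43, 10.28, 9.37, 9.30 and 9.37 at week 24 in anti-CD40L glands, against 11.06, 11.18, 10.56, 9.97 and 11.41 in control glands. The groups overlapped through the highest anti-CD40L gland, which lay above the lowest control gland. Means were 9.55 ± 0.41 in anti-CD40L glands and 10.84 ± 0.58 in control glands (SD, n = 5 each). At week 16 the values were 9.36, 8.98, 8.96, 9.30 and 8.25 in anti-CD40L glands and 11.27, 9.10, 9.66, 11.05 and 9.11 in control glands, where replicates 1 and 4 stood far above the other 3 controls. The week 16 difference was -1.07 ± 0.38 and did not pass (limma adjusted p = 0.147). At week 8, the anti-CD40L mean was 9.11 ± 0.24 and the control mean 9.68 ± 0.77, with one control gland at 10.98.

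Psmb9 followed the same arrays. Its values at week 24 were 8.17, 9.15, 8.27, 8.24 and 8.32 in anti-CD40L glands, against 9.97, 10.09, 9.28, 8.73 and 10.17 in control glands. Replicate 2 of the anti-CD40L group was the highest in its group, and it exceeded 1 control gland. At week 16 the anti-CD40L glands measured 7.93, 7.92, 7.90, 7.83 and 7.54 and the control glands 9.97, 7.90, 8.25, 9.71 and 8.06; the difference was -0.95 ± 0.37 and did not pass (limma adjusted p = 0.194). The third catalytic subunit, Psmb10, measured 8.30, 8.84, 8.23, 8.27 and 8.61 in anti-CD40L glands and 9.06, 9.37, 8.91, 8.57 and 9.10 in control glands at week 24. The anti-CD40L values were the lower ones apart from replicates 2 and 5, which overlapped the lowest control gland. The Psmb10 difference of -0.55 ± 0.19 missed the threshold (limma adjusted p = 0.0591). It passed under quantile normalisation (limma adjusted p = 0.0284) and with the Amy1 level as a covariate (limma adjusted p = 0.0382). It also passed without control week 16 replicates 1 and 4, and without control week 24 replicate 4 or anti-CD40L week 24 replicate 2. It did not pass with the 3 prime minus 5 prime difference as a covariate or under the other alternatives. Its week 16 difference was -0.54 ± 0.19 (limma adjusted p = 0.145).

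Both calls at week 24 were sensitive to single glands. Psmb8 no longer passed without control replicates 1, 3 or 5 or without anti-CD40L replicates 1, 3, 4 or 5, each left out in turn, with a highest limma adjusted p of 0.107 without control replicate 1. Psmb9 no longer passed without control replicates 1, 2, 3 or 5 or without anti-CD40L replicates 1, 3, 4 or 5, with a highest limma adjusted p of 0.127 without control replicate 1. The fitted log2 differences stayed between -1.14 and -1.50 for Psmb8 and between -1.09 and -1.45 for Psmb9. With the 3 prime minus 5 prime difference as a covariate, the differences were -1.12 and -1.01 and neither passed (limma adjusted p = 0.346 and 0.387); that measure was 0.16 to 0.25 in anti-CD40L and 0.29 to 0.61 in control glands at week 24, so the groups did not overlap in it and it cannot be told apart from treatment at that age. In the same fit the calls over all genes at week 24 fell to 23, against 1229. When each gene was instead given the median of its probe sets, which for Psmb8 takes in a dim one, Psmb8 differed by -0.60 (limma adjusted p = 0.0894), and with only the arrays compared Psmb9 had a limma adjusted p of 0.0558. With the Amy1 level as a covariate both passed, at limma adjusted p = 0.0194 and 0.0207. The constitutive catalytic subunits Psmb5, Psmb6 and Psmb7, which the immunosubunits replace, differed by -0.16, -0.21 and -0.20 at week 24, and 0 of 3 passed.

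**Figure D2:**
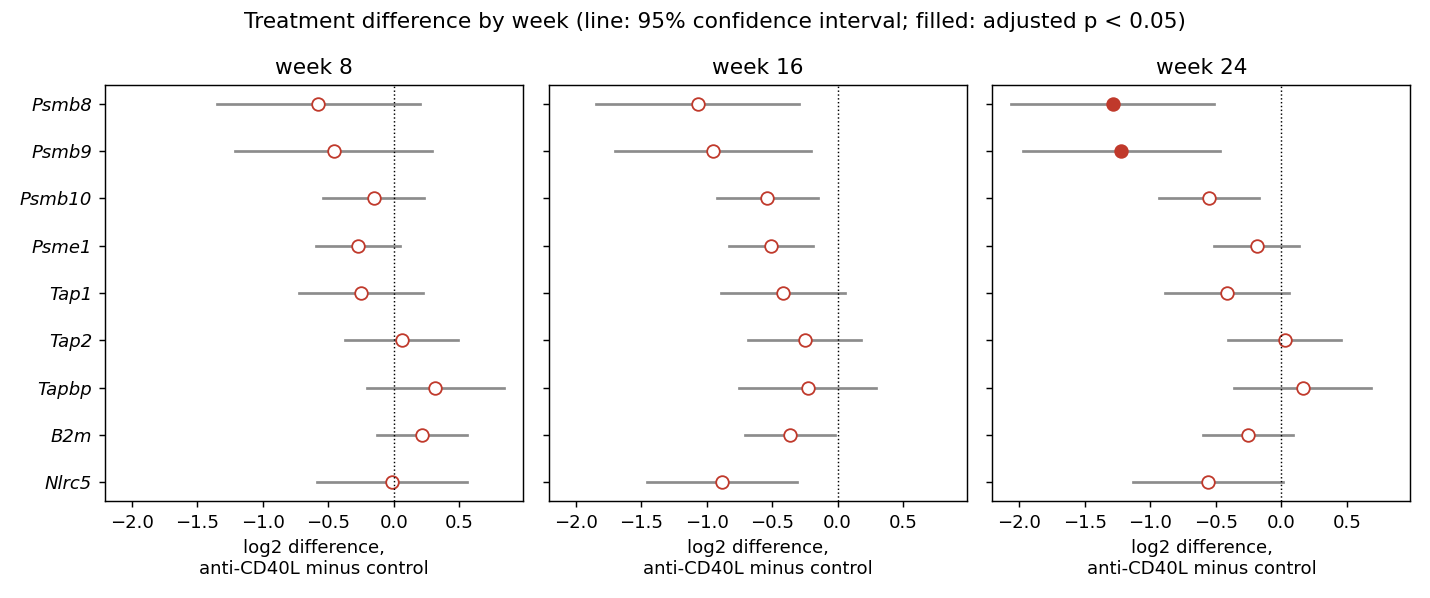
Log2 difference, anti-CD40L minus control, of the 9 genes at weeks 8, 16 and 24, with 95% confidence intervals. Only Psmb8 and Psmb9 at week 24 are filled (adjusted p under 0.05). The intervals of Tap1, Tap2 and Tapbp include 0 at every age.

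Psme1, an activator subunit, was the member whose groups did not overlap at week 16. It measured 10.05, 9.99, 9.92, 10.08 and 9.72 in anti-CD40L glands, all below the control glands at 10.80, 10.25, 10.26, 10.69 and 10.30. The difference was -0.51 ± 0.16 and the limma adjusted p was 0.0898. That p was 0.0332 under quantile normalisation, 0.00671 with array weights and 0.0334 with only the arrays compared. Under the other alternatives, among them the 3 prime minus 5 prime covariate, Psme1 did not pass, nor with any single array left out. Over all genes, 3.02% had groups that did not overlap in that direction at week 16, and 0.792% and 1.76% at weeks 8 and 24, where none of the 9 members did. At week 24 its difference was -0.19 ± 0.16 (limma adjusted p = 0.429). The probe set shared by Psme2 and Psme2b averaged 10.08 in anti-CD40L glands and 10.34 in control glands at week 16. It averaged 10.32 in anti-CD40L glands and 10.67 in control glands at week 24, and with all probe sets tested its limma adjusted p was 0.645 at week 16 and 0.172 at week 24. In that fit over every probe set, Psmb9 at week 24 had a limma adjusted p of 0.055, Psmb8 at week 24 one of 0.05, and Psmb8 in control glands at week 24 against week 8 one of 0.057.

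Of the transporter genes and tapasin, none passed the test at any age. Tap1 measured 7.24, 7.64, 7.27, 7.11 and 7.04 at week 24 in anti-CD40L glands, against 7.55, 7.88, 7.33, 7.48 and 8.14 in control glands. Those ranges overlap, and the difference of -0.42 ± 0.23 did not pass (limma adjusted p = 0.225). Tap2 averaged 7.86 ± 0.17 in anti-CD40L and 7.84 ± 0.51 in control glands at week 24, a difference of 0.03 (95% confidence interval -0.41 to 0.46). Tapbp averaged 9.87 ± 0.15 in anti-CD40L and 9.70 ± 0.56 in control glands, a difference of 0.16 (-0.36 to 0.69). At week 16 Tap2 differed by -0.25 and Tapbp by -0.23. B2m averaged 12.86 ± 0.12 in anti-CD40L glands and 13.11 ± 0.16 in control glands at week 24, a difference of -0.26 (limma adjusted p = 0.304). A further B2m probe set gave -0.34 and a further Tapbp probe set 0.29, while the other probe sets of Psmb8 and Tap1 were dim, with group means of 3.26 to 5.17.

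Nlrc5 measured 7.29, 7.61, 7.32, 7.67 and 6.34 at week 16 in anti-CD40L glands, against 9.17, 7.45, 7.68, 8.56 and 7.78 in control glands. Only control replicate 2 lay within the anti-CD40L range. The difference was -0.88 ± 0.28 (limma adjusted p = 0.0965). At week 24 the anti-CD40L mean was 7.52 ± 0.21 and the control mean 8.08 ± 0.43, a difference of -0.56 ± 0.28 (limma adjusted p = 0.176). Without the 2 high control glands at week 16, the median of the 9 differences at that age was -0.16, with 7 below 0 and none called.

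How far the treatment difference changed with age was tested by interaction contrasts. Between weeks 8 and 16 it moved by a median of -0.49, with 9 of 9 below 0, and between weeks 8 and 24 by -0.40, with 8 of 9 below 0. None passed limma's test in either contrast, where 0.146% and 0.00769% of all genes were called in either direction. In the first contrast 2 of 9 had an unadjusted p under 0.05, against 1771 of the 12998 genes tested. In the second contrast 0 of 9 did, against 759 of all genes tested. Among these 18 member contrasts, the largest by size was that of Nlrc5 between weeks 8 and 16, at -0.87 ± 0.39 (limma adjusted p = 0.327).

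Within the control glands, several members increased with age. At week 16 against week 8, 4 of 9 rose: Tapbp by 1.01 ± 0.26 (limma adjusted p = 0.00268), Nlrc5 by 0.85 ± 0.28 (limma adjusted p = 0.0149), Tap2 by 0.70 ± 0.21 (limma adjusted p = 0.00906) and B2m by 0.48 ± 0.17 (limma adjusted p = 0.0209). Over all genes, 28.4% were called higher and 18.1% lower at this step, a large background for the count of 4. Tapbp measured 10.48, 9.75, 9.81, 10.27 and 9.89 at week 16 and 9.66, 9.08, 9.04, 8.02 and 9.33 at week 8, and all 5 later glands lay above the earlier ones. Tap2 measured 8.59, 7.50, 7.69, 8.38 and 7.68 at week 16 and 7.49, 7.26, 7.37, 7.09 and 7.12 at week 8. For Tapbp and Tap2 the groups did not overlap, as for 16.4% of all genes. The number called was 2 without control week 8 replicate 4 or control week 16 replicate 1, and 1, Tapbp, without the 2 high control glands at week 16. Tapbp and Tap2 also moved with the RNA measure: over 30 arrays, which share gland and array, the correlation with the 3 prime minus 5 prime difference was -0.78 for Tapbp and -0.53 for Tap2, and -0.72 and -0.36 with group means removed. The pan-leukocyte genes, summed on a log2 scale, ranged from 10.13 to 11.94 at week 16 and from 9.40 to 11.72 at week 8 in control glands, with replicates 1 and 4 the highest at week 16; their part in the rises was not tested. With the 3 prime minus 5 prime difference as a covariate the Tapbp difference was 0.23 and no member passed.

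At week 24 against week 8 in control glands, Psmb8 rose by 1.15 ± 0.38 (limma adjusted p = 0.0443) and B2m by 0.66 ± 0.17 (limma adjusted p = 0.0117), against 8.49% of all genes called higher. Psmb9 differed by 1.03 ± 0.37 and did not pass (limma adjusted p = 0.0609). B2m measured 13.01, 13.28, 12.93, 13.06 and 13.28 at week 24 and 12.52, 12.70, 12.77, 12.10 and 12.17 at week 8, and the groups did not overlap, as for 2.22% of all genes. All 9 differences were above 0, with a median of 0.66 against 0.051 over all genes. The Psmb8 call was lost under quantile normalisation, with no filter, with the median of a gene's probe sets, with array weights, with the 3 prime minus 5 prime covariate, with the replicate block and with only the arrays compared, at limma adjusted p from 0.0523 to 0.202. B2m was lost with array weights, the covariate and only the arrays compared, at limma adjusted p of 0.0542, 0.0599 and 0.0902. In control glands the B cell genes summed to 8.94 to 11.06 at week 24 and 8.33 to 8.92 at week 8, and the pan-leukocyte genes to 10.73 to 12.71 and 9.40 to 11.72 at those weeks; their part in the rises was not tested. Leaving out 1 array gave between 1 and 5 members called: 5 without control week 8 replicate 1 or 3 or week 24 replicate 1 or 4, and 1 without week 8 replicate 2, 4 or 5 or week 24 replicate 2 or 5. In the anti-CD40L glands none of the 9 passed limma's test at either step. At week 16, 0 of 9 had an unadjusted p under 0.05, against 6309 of the 12998 genes tested. At week 24, 3 of 9 did, against 5113 of all genes tested. At week 16 against week 8 the median difference was -0.08, with 6 below 0, while 24.1% of all genes were called higher. With the Amy1 level as a covariate this median was 0.10, with 4 below 0. Genes called in either direction then numbered 2658, against 4750 without it. At week 24 against week 8 all 9 were above 0, with a median of 0.37, and 16.5% of all genes were called higher; Psme1 (0.37, limma adjusted p = 0.0845) was the 1 member whose groups did not overlap, against 12.4% of all genes.

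**Figure D3:**
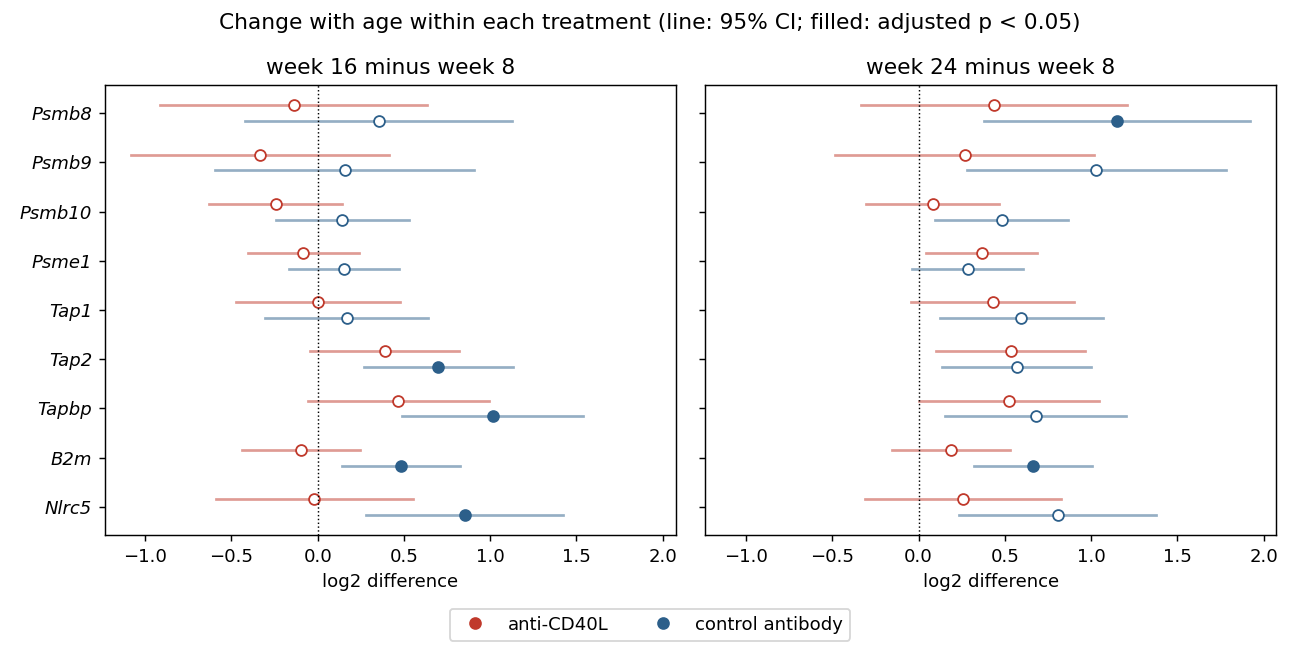
Log2 difference between week 16 or 24 and week 8 within anti-CD40L glands (red, upper) and within control glands (blue, lower), with 95% confidence intervals and filled points where adjusted p was under 0.05. Filled points lie in control glands, 4 genes at week 16 and 2 at week 24; the interaction contrasts, which test the difference between the antibody groups, called none.

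Among other genes of the pathway, the class I heavy chain gene H2-M3 fell with anti-CD40L at week 24 (-1.02 ± 0.23, limma adjusted p = 0.00874), the only one called of 5 heavy chain genes tested, of 15 listed. H2-Q10 was on the array but did not pass the filter on low values. H2-K1 and H2-D1, the classical heavy chains, differed by -0.19 and -0.22 and did not pass. In control glands 3 of 5 heavy chain genes rose at week 16 and 4 of 5 at week 24, each against week 8, where 28.4% and 8.49% of all genes were called higher. Of the 11 other core subunits of the proteasome, 3 fell at week 24 with anti-CD40L, Psma4 by 0.33, Psmb1 by 0.39 and Psmb3 by 0.51, against 3.49% of all genes called lower. In control glands 8 of the 11 fell at week 16 against week 8, against 18.1% of all genes. Psme3, another activator, rose with anti-CD40L at week 16 by 0.40 (limma adjusted p = 0.0383), and Psmg4, an assembly factor, fell at week 24 by 0.57 (limma adjusted p = 0.0189). The other class I loading genes, among them the chaperones Calr, Canx and Pdia3 and the peptide trimmer Erap1, were called in none of the 7 for treatment. All 7 rose at week 16 against week 8 in both antibody groups, where 24.1% of all genes in anti-CD40L glands and 28.4% in control glands were called higher. Of the interferon gamma genes measured, Irf8 and Ciita, the class II transactivator, fell at week 24 with anti-CD40L, by 0.48 and 0.56, and Irf1, a driver of immunoproteasome genes, differed by -0.42 and did not pass (limma adjusted p = 0.107).

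The members varied together to different degrees. Over 30 arrays with group means removed, Psmb8 and Psmb9 correlated at 0.96, and Psmb10 with them at 0.90 and 0.91. Tap1 correlated with Psmb9, whose promoter window overlaps its own, at 0.74. It correlated with Tap2 at 0.78, with Psmb8 and Nlrc5 at 0.77 and with Psmb10 and B2m at 0.73. With Tapbp and Psme1 the values for Tap1 were 0.52 and 0.49. Tapbp correlated with Psmb9 at 0.27 and with Tap2 at 0.81. These correlations describe arrays of glands that share composition and RNA quality. The genes most like the mean of the 9 members among 12989 other genes, by correlation over 30 arrays, were Igtp (0.95), Gbp2 (0.94), Gbp7 (0.93), Irf1 (0.93), Ccl5 (0.92), Ifi47 (0.91), H2-D1 (0.91) and Casp1 (0.91).

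**Figure D4:**
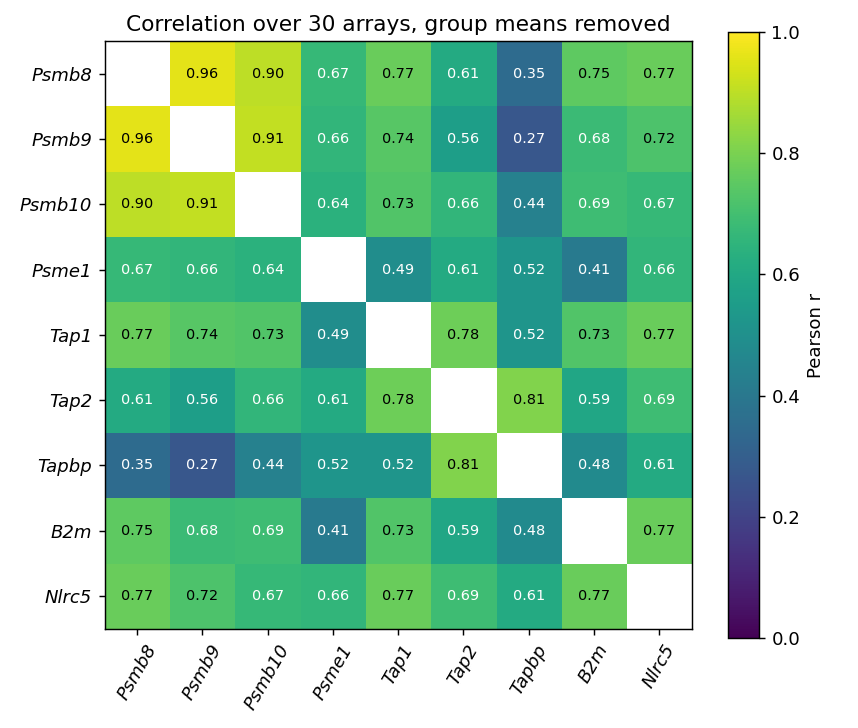
Pearson correlation between pairs of members over 30 arrays after removing each group's mean, with r printed in each cell and the diagonal left blank. The 3 immunoproteasome subunits correlate at 0.90 to 0.96, and Tapbp correlates with Psmb9 at 0.27.

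Leukocyte genes moved with the same arrays. The summed level of the 5 pan-leukocyte genes ranged from 10.02 to 10.91 in anti-CD40L glands and 10.73 to 12.71 in control glands at week 24, on a log2 scale. The 7 B cell genes on the array, of 8 listed, summed to 8.15 to 8.44 in anti-CD40L and 8.94 to 11.06 in control glands. The 9 T cell genes of 10 summed to 8.62 to 9.35 in anti-CD40L and 9.56 to 10.75 in control glands. For neither list did the antibody groups overlap. The 10 cytotoxic T and NK cell genes of 10 summed to 9.07 to 9.87 in anti-CD40L and 9.47 to 10.69 in control glands. The 11 macrophage and dendritic cell genes of 12 summed to 12.16 to 12.54 in anti-CD40L and 12.01 to 13.16 in control glands. Fcer2a, Cd5, Cd8b1, Gzmk and Xcr1 are part of these sums, though they did not pass the filter on low values. The mean level of the salivary acinar genes was 12.01 to 12.37 in anti-CD40L and 11.62 to 12.15 in control glands at week 24. The mean of the measured cytotoxic T and NK cell genes correlated with Psmb8 at 0.95 and with Psmb9 at 0.96 over 30 arrays. With group means removed these values were 0.92 and 0.94. Psmb8 and Psmb9 both correlated at 0.93 with the pan-leukocyte genes and at 0.90 with the macrophage and dendritic cell genes. With the T cell genes they correlated at 0.85 and 0.88, and with the B cell genes at 0.80 and 0.82. The part of leukocyte content in the week 24 differences was not tested. Tapbp correlated with the pan-leukocyte genes at 0.27 and with the cytotoxic T and NK cell genes at 0.17. With the macrophage and dendritic cell genes it correlated at 0.37, with the B cell genes at -0.02 and with the T cell genes at -0.00.

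**Figure D5:**
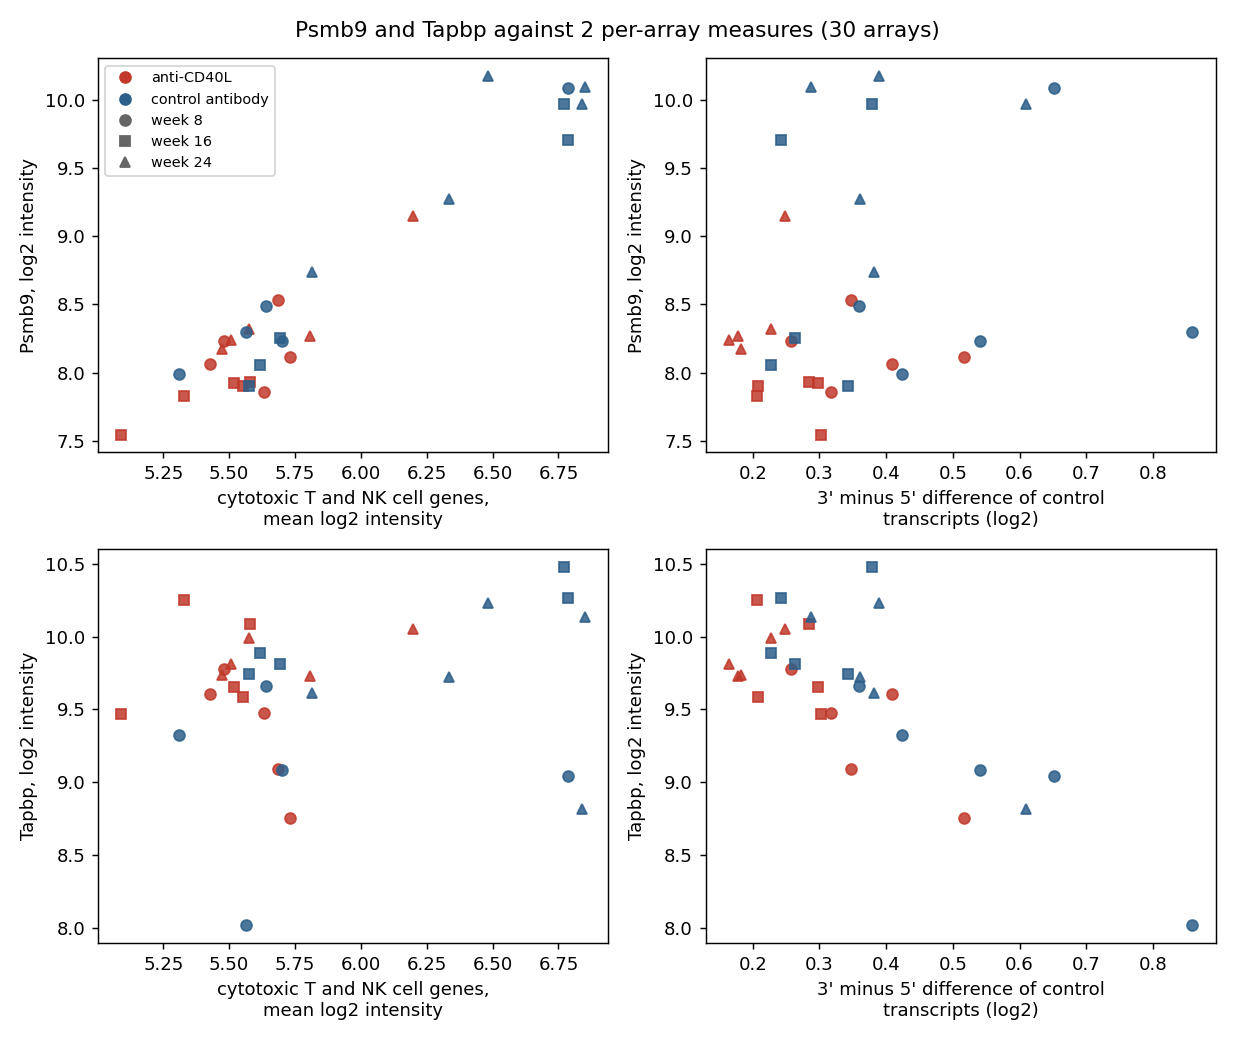
Psmb9 (upper) and Tapbp (lower) in each of 30 arrays against the mean level of cytotoxic T and NK cell genes (left) and the 3 prime minus 5 prime difference of control transcripts (right), all on a log2 scale; colour marks antibody and shape marks week. Psmb9 rises with the cytotoxic genes and Tapbp falls with the 3 prime minus 5 prime difference.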

How the data were processed

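The log2 intensities of 45101 probe sets in 30 arrays were used as deposited by the authors; the sources used here do not state how they were normalised, though the submitters' processing notes name limma. The 34945 probe sets that the platform annotation gives a single gene, with control probe sets left out, cover 18193 genes, each represented by the brightest of its probe sets on average. Genes entered the test if this probe set exceeded the array median on at least 5 arrays, which left 12998 genes. Group means were fitted with limma 3.58.1 (lmFit and eBayes) in R 4.3.3 over all 30 arrays, with Benjamini-Hochberg adjustment over all 12998 genes and a threshold of 0.05. The procedure was tested on simulated data. A fold of 2 in the text is 1 log2 unit, and the number of arrays limits the precision. The members and lists were chosen with earlier results of these data known, and every member is named. Motif searches and plots used Python 3.11.15, pandas 2.3.3 and matplotlib 3.10.9. Alternatives changed the scaling, the filter, the probe set, the weights, the covariates, the block and the arrays. No batch is given by the labels.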

Additional observations from a re-analysis of the deposited data

Results flagged for a closer look

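The 9 genes in each of the 6 groups gave 54 sets of 5 values. Of these sets, 7 held a value that stood apart from the others by Dixon's criterion of 0.71, where chance flags about 1 set in 20. The genes share arrays and vary together, so the sets are not independent and the count cannot be judged against that rate. Psmb8 in anti-CD40L week 24 replicate 2 was 10.277, with the next at 9.425, and Psmb9 in the same array was 9.147, with the next at 8.316. Psmb9 in control week 8 replicate 3 was 10.091, with the next at 8.486, and in anti-CD40L week 16 replicate 5 it was 7.545, the lowest, with the next at 7.829. Nlrc5 in that anti-CD40L week 16 array was 6.337, the lowest, with the next at 7.294. In anti-CD40L week 8 replicate 3, Tap1 was 6.098, with the next at 6.909, and Nlrc5 was 6.795, with the next at 7.295.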

How the results depend on the processing

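Of 1044 values under alternatives, 963 were on the same side of the threshold with the same direction, 25 lost and 22 gained the threshold and 34 changed sign, none of them among the 8 called values. The number of members called at week 16 of treatment was 1 under quantile normalisation, 3 with array weights and 1 with only the arrays compared, against 0. At week 24 of treatment, against 2, it was 1 with the median over probe sets, 0 with the 3 prime minus 5 prime covariate, 1 with only the arrays compared, 3 under quantile normalisation, with the Amy1 covariate and without the high pair of control week 16 arrays, and 0 to 3 with single arrays left out. In control glands at week 16 against week 8, against 4, it was 0 with the covariate, 2 with only the arrays compared, 1 without the high pair, 3 with array weights, 3 without the 5 arrays least like the others (an alternative chosen after seeing the data) and 2 to 4 with single arrays left out. In control glands at week 24 against week 8, against 2, it was 1 under quantile normalisation, 1 with no filter, 1 with the median over probe sets, 0 with array weights, 0 with the covariate, 1 with the replicate block, 0 with only the arrays compared, 7 without the high pair, 4 without those 5 arrays, 3 with the 70th percentile filter, 3 with the Amy1 covariate and 1 to 5 with single arrays left out. In anti-CD40L glands at week 24 against week 8, against 0, it was 1 with array weights, 3 with only the arrays compared, 1 without the high pair and 0 to 1 with single arrays left out. The labels state no pairing of mice by replicate number. The correlations of deviations between same-numbered arrays ran from -0.32 to 0.40, which alone cannot settle whether mice were paired. The replicate block changed no other count of members called. The cause of these changes was not tested.

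Sign changes concerned uncalled values. For anti-CD40L minus control at week 8, Tap2 was -0.0015 under quantile normalisation and -0.17 with the covariate, Tapbp was -0.24 with the covariate, and Nlrc5 was 0.0018 with arrays centred, 0.07 with array weights and 0.10 without the 5 arrays. At week 16, Tap1 was 0.05 and Tap2 0.09 without the high pair. At week 24, Tap2 was -0.08 under quantile normalisation, -0.08 with array weights, -0.21 with the covariate and -0.15 without the 5 arrays, and Tapbp was -0.42 with the covariate and -0.06 without the 5 arrays. For control week 16 minus week 8, quantile normalisation gave -0.04 for Psmb9, -0.06 for Psmb10 and -0.02 for Tap1, and leaving out the high pair gave -0.40 for Psmb8, -0.55 for Psmb9, -0.24 for Psmb10, -0.04 for Psme1 and -0.30 for Tap1. For anti-CD40L week 16 minus week 8, Psmb8 was 0.16 and Nlrc5 0.10 with the Amy1 covariate, and Tap1 was -0.13, -0.08, -0.02 and -0.14 under quantile normalisation, array weights, the covariate and without the 5 arrays. For anti-CD40L week 24 minus week 8, Psmb10 was -0.11 under quantile normalisation. For the change of the treatment difference from week 8, at week 16 leaving out the high pair gave 0.26 for Psmb8, 0.22 for Psmb9, 0.30 for Tap1 and 0.03 for Tap2, and at week 24 Psme1 was -0.08 with array weights. With single arrays left out, the ranges that cross 0 were as follows. For treatment at week 8 they were -0.03 to 0.19 for Tap2 and -0.19 to 0.14 for Nlrc5, and at week 24 -0.15 to 0.17 for Tap2 and -0.06 to 0.29 for Tapbp. For control week 16 minus week 8 they were -0.14 to 0.53 for Psmb9, -0.01 to 0.27 for Psmb10 and -0.06 to 0.37 for Tap1. For anti-CD40L week 16 minus week 8 they were -0.24 to 0.04 for Psmb8, -0.18 to 0.08 for Tap1, -0.19 to 0.04 for B2m and -0.14 to 0.21 for Nlrc5, and for week 24 minus week 8 -0.02 to 0.14 for Psmb10. For the change of the treatment difference they were -0.37 to 0.06 for Tap1 at week 16, and -0.09 to 0.20 for Psme1, -0.21 to 0.11 for Tap2 and -0.38 to 0.10 for Tapbp at week 24.

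Counts over all genes moved too. Called genes at week 8 of treatment numbered 9, with 0 to 43 under alternatives, at week 16 numbered 245, with 35 to 1557, and at week 24 numbered 1229, with 23 to 1888. With single arrays left out they numbered 4 to 23, 74 to 220 and 237 to 2140. Control week 16 minus week 8 gave 6046 called genes, with 620 to 6402 under alternatives, control week 24 minus week 8 gave 1624, with 41 to 1836, anti-CD40L week 16 minus week 8 gave 4750, with 2476 to 5431, and anti-CD40L week 24 minus week 8 gave 3074, with 633 to 3501. With single arrays left out, these 4 numbered 4444 to 6781, 721 to 3228, 3138 to 5297 and 1381 to 3793. The change of the treatment difference gave 19 called genes at week 16, with 0 to 263, and 1 at week 24, with 0 to 9. Quantile scaling lowered the share of higher calls. It called 153 of 278 genes higher at week 16 of treatment, against 170 of 245, and 633 of 1309 at week 24, against 775 of 1229. In control glands it called 2621 of 6237 higher at week 16, against 3689 of 6046, and 858 of 1836 at week 24, against 1103 of 1624. In anti-CD40L glands it called 1714 of 4397 higher at week 16, against 3127 of 4750, and 1234 of 2881 at week 24, against 2148 of 3074. It moved the median of all genes to -0.06, against 0.06, in control glands at week 16, to -0.05, against 0.09, in anti-CD40L glands at week 16 and to -0.02, against 0.09, at week 24.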
